A study of Rattus norvegicus with 84 samples.

Results

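The gastrocnemius, the large calf muscle of the hindlimb, was compared with the kidney in young male Sprague Dawley rats, with 10 libraries of each tissue out of 84 in the series. The libraries were chosen by their labels alone: both groups were 6 months old at collection and had received the vehicle, a diluted microemulsion with methylcellulose given by mouth, for 6 weeks from an age of 4.5 months. None of these 20 libraries came from a rat given RAD001, the mTORC1 inhibitor tested elsewhere in the series. Total RNA came from tissue powder of snap-frozen organs, so each value averages over all cell types of the organ, and fewer cells of a type cannot be told apart from less RNA per cell. The labels do not tie libraries to individual rats, and they do not say whether both tissues of one rat were used, so p-values measure the spread between these libraries. Young liver (10 libraries) served as a further tissue, and the aged vehicle groups of 24 months (10 gastrocnemius and 10 kidney libraries) as a repeat of the comparison.

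Skeletal muscle fibres are multinucleate cells packed with sarcomeres, in which myosin thick filaments pull on actin thin filaments when calcium, released from the sarcoplasmic reticulum, binds troponin. The rat gastrocnemius is built mainly of fast fibres, which draw on glycolysis and phosphocreatine for short bursts of work. The kidney is built of nephrons: a filter with podocytes, then a chain of epithelial segments (proximal tubule, loop of Henle, distal convoluted tubule, collecting duct) that reclaim solutes with transporters and channels. The proximal tubule runs on fatty acids, lactate and glutamine, and it also makes glucose.

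The sources used here do not define the deposited values; they were read as coverage per base of a locus times a library factor, because value times length came in whole steps for 92.5% to 97.7% of the short loci checked in each of the 20 libraries. Comparisons of levels between genes, and shares within gene pairs, rest on that reading. Of 17502 loci, 10309 passed the filter on low values and were tested with limma. The filter used deposited values, and the factors by which these were divided had a median of 1.29 in kidney and 0.781 in gastrocnemius. A locus therefore passed at a lower scaled level in kidney than in gastrocnemius. A gene near 0 in 1 tissue could pass only through the other, so list counts among genes that passed partly follow from the filter. At an adjusted p under 0.05, 3886 loci (37.7%) were higher in gastrocnemius and 5286 (51.3%) were higher in kidney, so 89% of loci differed and this call says little about any 1 gene. The text therefore rests on a second call, a difference shown by limma's treat test to exceed 2-fold. In the direction of gastrocnemius 1314 loci (12.7%) met it, and in the direction of kidney 2100 loci (20.4%). With no filter the counts were 1302 and 2070. The shares of 12.7% and 20.4% are the background for the counts of gene lists beyond 2-fold given below. The levels of the 10 libraries of one tissue lay wholly above those of the other at 6805 loci (66%). The median log2 difference, gastrocnemius minus kidney, over all loci tested was -0.18, and it moved with the scaling (-0.21 with median-of-ratios, -0.10 with upper-quartile scaling and -0.75 for values as deposited), so small shared shifts of a gene list carry little weight.

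Differences were large at the extremes. Of the loci higher in gastrocnemius beyond 2-fold, 644 had a log2 difference of at least 2, 156 of at least 5 and 45 of at least 8. Of those higher in kidney, 1070, 174 and 22 passed the same sizes. The gastrocnemius put more of its coverage into few genes: among 13698 loci matched to coding genes, the 10 most abundant took a median of 28.9% of the summed level per base in gastrocnemius (lowest library 27.5%, highest 30%) and 10.1% in kidney (9.01% to 10.8%). The 2 ranges do not overlap, and the median in young liver was 29.8%. Mylpf was not among the matched loci; with it added, a choice made after seeing the data, the median in gastrocnemius was 31.0% (29.2% to 32.2%).

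The defining markers matched the labels. The median correlation of a library with the others of its tissue was at least 0.988, and the highest correlation with a library of the other tissue was 0.47. The fixed muscle markers Acta1, Ckm, Myh4 and Tnnt3 were at or near 0 in kidney (means of 0.0001 to 0.013), and the kidney markers Umod, Slc34a1, Lrp2, Aqp2 and Nphs1 were near 0 in gastrocnemius (means of 0.00037 to 0.035). Ryr1 was not analysed here.

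Some libraries stood above the others of their tissue at genes of another tissue. Over 37 kidney loci (mean 20 or more, log2 difference -7 or beyond), the median level in gastrocnemius replicate 3 was 0.231% of the kidney mean and in replicate 9 0.0817%, against 0.0138% to 0.0271% in the other 8 gastrocnemius libraries. In kidney, 26 liver loci stood at a median of 0.0993% of their liver mean in replicate 10 and at 0.00153% to 0.0262% in the other 9 libraries, and albumin (Alb) reached 4.48 in replicate 10 against at most 1.06 elsewhere. Muscle loci in kidney libraries stayed at or below a median of 0.0151%. Without gastrocnemius replicates 3 and 9, a choice made after seeing the data, the counts beyond 2-fold were 1287 and 2085, and Kap and Hao2 moved from -10.81 and -10.53 to -11.03 and -10.82. The low levels of kidney genes given below for gastrocnemius include replicates 3 and 9. The source of their higher levels, and its part in each value, was not tested.

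The genes with the largest differences in favour of gastrocnemius were parts of the fast sarcomere and its energy supply. Acta1, the skeletal alpha actin of the thin filament (rn5 chr19:67389898-67392911), ranged from 1383 to 1616 over the 10 gastrocnemius libraries, with a median of 1523, and did not exceed 0.0072 in any kidney library. Its log2 difference was 13.84 ± 0.03 (SE; limma treat, adjusted p = 1.16e-43). Mylpf, the fast regulatory light chain of myosin, averaged 1484 ± 140 (SD, n = 10) against 0.029, and Myl1, an essential light chain, 934 ± 83 against 0.0013. The fast troponins Tnni2, Tnnt3 and Tnnc2, which switch the thin filament on when calcium rises, averaged 1127 ± 75, 617 ± 29 and 584 ± 55 in gastrocnemius and at most 0.013 in kidney. Ckm, the muscle creatine kinase that regenerates ATP from phosphocreatine, averaged 1019 ± 46 against 0.00086, and myoglobin (Mb), the oxygen store of muscle, 585 ± 63 against 0.0015. The gastrocnemius and kidney libraries did not overlap for any of these genes.

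The genes with the largest differences in favour of kidney belonged mostly to the proximal tubule. Kap, the androgen-regulated kidney protein of the proximal tubule (rn5 chr4:230077259-230080304), ranged from 185 to 346 over the kidney libraries, with a median of 242, and from 0 to 0.364 in gastrocnemius; its log2 difference was -10.81 ± 0.19 (SE; limma treat, adjusted p = 2.35e-25). Cyp4a2, a fatty acid omega-hydroxylase that also acts on arachidonic acid, averaged 215 ± 39. Hao2, a peroxisomal oxidase of 2-hydroxy acids, averaged 277 ± 24. Miox, which opens the ring of myo-inositol, averaged 142 ± 6.9, and Glyat, which conjugates glycine to acyl groups, 57.7 ± 3.3. Slc3a1 and Slc7a13, which pair as an acidic amino acid and cystine transporter of the late proximal tubule, averaged 89.8 ± 12 and 67.1 ± 19. Tff3, a secreted trefoil peptide, averaged 80.0 ± 25 and ranged from 42.3 to 133 over the kidney libraries. Umod, uromodulin of the thick ascending limb and the main protein of normal urine, ranged from 55.8 to 87.2 in kidney (median 78.6) and from 0.0046 to 0.188 in gastrocnemius, for a log2 difference of -9.21 ± 0.14 (SE; adjusted p = 1.33e-26). Gastrocnemius replicate 3 held the highest level of Kap, Hao2 and Umod among the muscle libraries, and every kidney library stayed far above it.

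**Figure D1:**
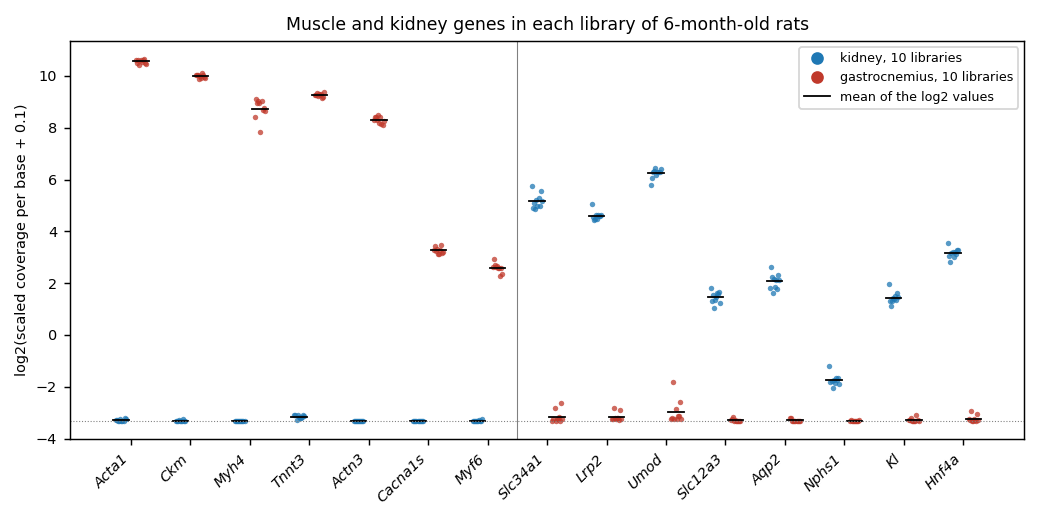
Level of 7 muscle and 8 kidney genes in each library, as log2(scaled coverage per base + 0.1), in kidney (blue) and gastrocnemius (red) of 6-month-old rats; each point is a library, the black line is the mean of the 10 log2 values and the dotted line is the value of a gene listed at 0. No gene shows an overlap between the tissues, Acta1 reaches 1616 in gastrocnemius, and Nphs1 is the lowest kidney gene shown, with a mean of 0.204.

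Promoter sequences are shown for 3 muscle genes and 3 kidney genes of proximal tubule transport and amino acid breakdown, as examples of windows that hold the motifs. All 6 were chosen after their matches were seen, so they do not show how common a motif is: the 3 kidney windows are 3 of only 4 in the kidney set that hold CAAAGTCCA. The windows run from 250 bases before to 50 after the annotated gene start (RefSeq, build GRCr8), 5′ to 3′ on the gene's strand. Capitals mark matches, on either strand, to CAGCTG (a palindrome bound by MyoD-family factors), TAAAAATA (a core bound by Mef2), the CArG box (bound by Srf), TATAAA or CAAAGTCCA (a site bound by Hnf4a); where matches overlap, the capitals run together.
Acta1 (chr19:68784145-68784444, minus strand): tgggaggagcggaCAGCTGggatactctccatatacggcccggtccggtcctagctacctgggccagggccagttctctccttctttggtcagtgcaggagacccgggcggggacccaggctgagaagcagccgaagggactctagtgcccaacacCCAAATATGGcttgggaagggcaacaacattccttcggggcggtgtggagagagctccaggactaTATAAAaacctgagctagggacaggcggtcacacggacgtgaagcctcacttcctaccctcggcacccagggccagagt
Ckm (chr1:88189211-88189510, plus strand): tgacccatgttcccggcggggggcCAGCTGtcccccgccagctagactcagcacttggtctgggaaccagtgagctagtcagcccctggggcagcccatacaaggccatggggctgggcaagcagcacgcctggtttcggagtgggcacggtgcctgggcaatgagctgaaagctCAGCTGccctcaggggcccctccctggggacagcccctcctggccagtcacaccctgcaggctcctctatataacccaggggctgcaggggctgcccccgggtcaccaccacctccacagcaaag
Myh4 (chr10:52421898-52422197, plus strand): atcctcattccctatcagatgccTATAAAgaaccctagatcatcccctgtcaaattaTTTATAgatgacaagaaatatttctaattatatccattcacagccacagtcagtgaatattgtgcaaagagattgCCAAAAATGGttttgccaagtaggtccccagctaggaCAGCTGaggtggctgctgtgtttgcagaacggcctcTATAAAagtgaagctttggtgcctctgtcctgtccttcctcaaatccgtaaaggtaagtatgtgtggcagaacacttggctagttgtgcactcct
Slc3a1 (chr6:15394700-15394999, minus strand): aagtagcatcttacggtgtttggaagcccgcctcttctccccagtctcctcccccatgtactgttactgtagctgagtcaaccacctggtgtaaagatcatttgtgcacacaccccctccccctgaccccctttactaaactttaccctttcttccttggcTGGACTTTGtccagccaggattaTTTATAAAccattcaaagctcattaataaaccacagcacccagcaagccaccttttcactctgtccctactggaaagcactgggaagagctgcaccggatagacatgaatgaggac
Agxt2 (chr2:61063166-61063465, plus strand): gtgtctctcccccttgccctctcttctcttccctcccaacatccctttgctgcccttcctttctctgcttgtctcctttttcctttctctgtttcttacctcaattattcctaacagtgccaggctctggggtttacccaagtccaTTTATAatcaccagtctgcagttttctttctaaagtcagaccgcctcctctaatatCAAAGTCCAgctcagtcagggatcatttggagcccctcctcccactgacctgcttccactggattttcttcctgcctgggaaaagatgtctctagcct
Pdzk1 (chr2:187064745-187065044, plus strand): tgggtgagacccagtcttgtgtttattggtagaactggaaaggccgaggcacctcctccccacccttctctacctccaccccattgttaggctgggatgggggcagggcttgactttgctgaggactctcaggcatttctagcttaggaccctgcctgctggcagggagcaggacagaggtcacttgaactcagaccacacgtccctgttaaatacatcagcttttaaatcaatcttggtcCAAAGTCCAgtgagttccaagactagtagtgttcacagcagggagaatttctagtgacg
In Acta1 the CArG box starts 94 bases before the gene start and CAGCTG 237 bases before it, in Ckm CAGCTG starts 75 and 226 bases before it, and in Myh4 the CArG box and CAGCTG start 118 and 81 bases before it. In Slc3a1, Agxt2 and Pdzk1, CAAAGTCCA or its reverse complement starts 89, 48 and 9 bases before the gene start.

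Motif shares are given as descriptions, since a match is not a bound site. CAGCTG was present in 15.1% of all 27457 promoters and in 16.5% of the 7604 that belong to tested loci. It was present in 37.6% of the 109 promoters of genes with a log2 difference of 5 or more in favour of gastrocnemius and in 21.6% of the 134 promoters of genes with as large a difference in favour of kidney. TAAAAATA was present in 1.05% of promoters of tested loci, 6.42% of the muscle set and 0% of the kidney set, and the CArG box in 1.29%, 4.59% and 0.746%. CAAAGTCCA was present in 0.302% of promoters of tested loci, 0.917% of the muscle set and 2.99% of the kidney set, 4 promoters in number. TATAAA was present in 6.81%, 23.9% and 17.9%. Over all 27457 promoters the shares were 2.74% for TAAAAATA, 1.64% for the CArG box, 0.375% for CAAAGTCCA and 14.3% for TATAAA.

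All measured parts of the sarcomere but Myh7b were higher in gastrocnemius beyond 2-fold. Of the thick filament genes, 17 of 18 passed the test (12.7% of all loci did), with a median log2 difference of 8.66 against -0.18 over all loci; Myh7b, a slow-type myosin, stood at 0.323 ± 0.092 in gastrocnemius and 0.226 ± 0.024 in kidney. All 16 thin filament genes passed (median 8.23), as did all 17 genes of the Z disc, the plate that anchors thin filaments (median 6.35). The myosin heavy chains ranked Myh4 (IIB, 440 ± 101), Myh1 (IIX, 369 ± 71), Myh2 (IIA, 56.3 ± 8.7) and Myh7 (slow, 37.9 ± 9.5), and the embryonic and perinatal forms Myh3 and Myh8 stood at 2.35 ± 0.45 and 4.22 ± 0.57. Myh4 and Myh1 overlapped between libraries, as did Myh2 and Myh7, while Myh4 and Myh1 both lay above Myh2 in every library. These myosin genes are near-identical neighbours on chromosome 10, except Myh7, so the split of reads between them is uncertain. Actn3, the alpha actinin of fast fibres, averaged 316 ± 28 and was listed at 0 in all 10 kidney libraries.

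The machinery that couples the nerve signal to calcium release followed the same direction. Of 21 excitation-contraction genes, 20 were higher in gastrocnemius beyond 2-fold (median 5.93), the exception being the potassium channel Kcnj12 (2.70 ± 0.27 against 1.17 ± 0.16). Parvalbumin (Pvalb), the calcium buffer of fast fibres, averaged 304 ± 38 and was listed at 0 in every kidney library, as were Cacna1s and Cacng1, subunits of the voltage sensor in the transverse tubule, with means of 9.57 ± 0.86 and 9.62 ± 0.93 in gastrocnemius. Atp2a1, the calcium pump of the fast reticulum, averaged 215 ± 41 against 0.0006, and calsequestrin 1 (Casq1), which stores calcium there, 78.9 ± 6.0 against 0.352 ± 0.10. Stac3, which links the voltage sensor to the release channel, was not restricted to muscle among the 3 tissues: it averaged 11.2 ± 0.42 in gastrocnemius, 0.0048 in kidney and 15.5 in young liver. Of 15 genes of the dystrophin complex and membrane repair, 14 passed (median 4.0), with Dmd itself at 1.91 ± 0.18 against 0.177 ± 0.023 and Dag1, the dystroglycan that many epithelia also use, short of the test (2.72 ± 0.48 against 1.13 ± 0.15).

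Genes of the neuromuscular junction and the myogenic regulators were low in level but largely muscle-sided. Of 12 junction genes, 8 passed the filter, so the count covers those; 6 were higher in gastrocnemius beyond 2-fold, among them Ache, the enzyme that splits acetylcholine (1.27 ± 0.23 against 0.026), and Dok7 (0.779 ± 0.11 against 0.0012). The transcription factor Etv5 was the 1 member higher in kidney (0.325 ± 0.044 against 0.085 ± 0.042), a call lost in 14 of the 20 fits without 1 library. All 13 myogenic regulators that passed the filter were higher in gastrocnemius beyond 2-fold (median 2.33), against 12.7% of all loci. Those near 0 in kidney could pass the filter only through the gastrocnemius libraries, so the filter partly fixed this count. Myf6, the regulator most abundant in mature fibres, ranged from 4.78 to 7.59 in gastrocnemius and averaged 0.00097 in kidney; Lbx1 averaged 2.37 ± 0.26; Myod1 and Myog, which drive differentiation, were lower at 0.416 ± 0.12 and 1.20 ± 0.27. The satellite cell genes Pax7 and Myf5 stayed below the filter, at means of 0.023 and 0.052.

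Glycolysis and the phosphate shuttles were carried by different genes in the 2 tissues. All 29 muscle energy genes were higher in gastrocnemius beyond 2-fold (median 5.58). Of 33 pairs of genes with like roles, with 1 member known as the muscle form, 31 had both members matched to a locus. The muscle form was higher in gastrocnemius beyond 2-fold in 31 of 31 (12.7% of all loci were). The other form was higher in kidney beyond 2-fold in 23 of 31 (20.4% of all loci were). Gys2 and Fabp1, among the other forms, were below the filter and untested, so they could not be called. The share of the muscle form did not overlap between the tissues' libraries in 29. Levels of single loci did not overlap at 66% of all loci tested, and no background was computed for shares of 2 genes. Pairs were chosen for a known muscle form, so the counts partly follow from that choice. Some pairs are not forms of 1 protein, such as the dehydrogenase Gpd1 with the kinase Gk and the calcium buffers Pvalb and Calb1. These counts therefore cover more than isoforms. Enolase was Eno3 in muscle (351 ± 21, 99.7%) and Eno1 in kidney (Eno3 1.75%), and phosphoglycerate mutase was Pgam2 (333 ± 27, 99.8%) and Pgam1 (Pgam2 3.4%). Creatine kinase was Ckm in 99.9% and 0.041%, and the mitochondrial form Ckmt2 made up 99.4% in muscle and was listed at 0 in all kidney libraries.

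The same exchange was seen in mitochondria, membranes and the ribosome's helper. Cox6a2 and Cox8b, the heart and muscle forms of 2 subunits of cytochrome c oxidase, made up 95.1% and 95.1% of their pairs in gastrocnemius and 0.023% and 0.16% in kidney. The ADP/ATP carrier Slc25a4 made up 99.5% and 25.2% beside Slc25a5. Of 2 small membrane proteins of the FXYD family, Fxyd1 averaged 23.9 in muscle and 0.473 in kidney, and Fxyd2 0.36 in muscle and 94.8 in kidney. The insulin-responsive glucose transporter Slc2a4 made up 99.99% in muscle and 7.1% in kidney beside Slc2a2. Elongation factor Eef1a2, found in muscle and neurons, made up 83.1% in gastrocnemius and 0.0083% in kidney beside Eef1a1.

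Not all pairs were exchanged. Glycogen synthase was Gys1 in both tissues (99.97% and 97.2%, with the liver form Gys2 near 0), and so was the fatty acid binding protein Fabp3 (99.98% and 99.6%); the shares of these 2 pairs overlapped between tissues. Phosphofructokinase in kidney was a mixture, with Pfkm at 60.1% of both, as were the glycerol phosphate genes Gpd1 and Gk (Gpd1 59.7%) and acetyl-CoA carboxylase (Acacb 41.8% in kidney, 85.3% in muscle). Lactate dehydrogenase was Ldha to 87.2% in muscle (range 80.5% to 91.6%) and to 14.4% in kidney; its partner Ldhb did not differ beyond 2-fold (13.8 and 25.3). Among aquaporins, Aqp4, present on fast fibres, was the member that was higher in muscle (1.10 ± 0.14 against 0.181 ± 0.069), yet it made up only 8.5% there beside Aqp1 (11.9 ± 0.93), a gene of capillaries as well as of the proximal tubule.

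**Figure D2:**
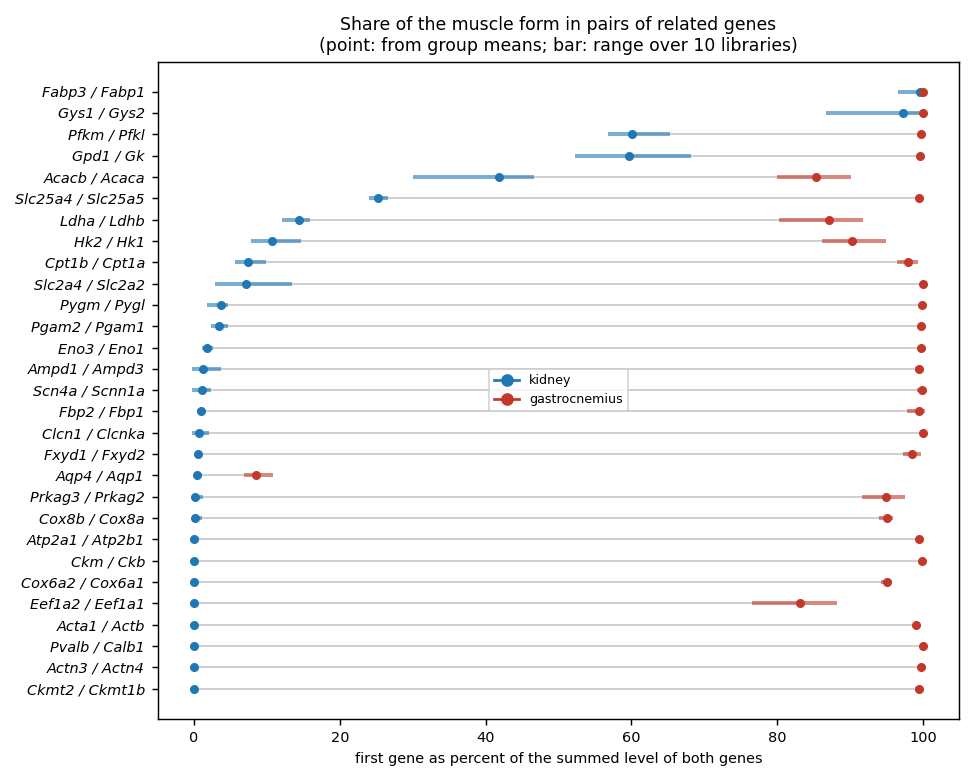
Share of the muscle form (first gene named) in the summed level of both genes of a pair, in percent, for 29 of the 31 pairs in kidney (blue) and gastrocnemius (red); points come from group means and bars span the lowest to the highest of 10 libraries. Most pairs stand near 0 in kidney and near 100 in gastrocnemius; Gys1 and Fabp3 stand near 100 in both, and Aqp4 reaches 8.5% in gastrocnemius.

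Transport genes of the proximal tubule were uniformly higher in kidney: 37 of 38 were so beyond 2-fold (20.4% of all loci were), with a median log2 difference of -5.37. The exception, the organic anion transporter Slc22a7, was low (0.117 ± 0.041 against 0.00063). Slc34a1, the main phosphate cotransporter, averaged 36.9 ± 8.1, the endocytic receptor megalin (Lrp2) 24.4 ± 3.2 and its partner cubilin (Cubn) 3.08 ± 0.43. Of the sodium-glucose cotransporters, Slc5a2 of the early segment averaged 11.6 ± 1.1 and Slc5a1 of the late segment 0.968 ± 0.089, and the urate transporter Slc22a12 averaged 13.6 ± 2.1. Aqp1 stood at 49.6 ± 3.9 in kidney and 11.9 ± 0.93 in gastrocnemius, a log2 difference of -2.05. Over all solute carriers by symbol, 120 of 244 tested were higher in kidney and 21 in gastrocnemius beyond 2-fold.

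Brush border and tubular enzymes followed, with 32 of 35 higher in kidney beyond 2-fold (median -5.84). Ggt1, which splits glutathione at the brush border, averaged 33.8 ± 5.5, the peptidases Mep1a and Dpp4 12.6 ± 1.6 and 11.5 ± 1.3, and Gatm, which starts creatine synthesis, 24.7 ± 5.8 against 0.070 ± 0.024 in muscle, the tissue that stores creatine. Ace, the angiotensin-converting enzyme, was the exception: 0.459 ± 0.086 in gastrocnemius and 0.137 ± 0.044 in kidney, a call lost with median-of-ratios scaling and in 8 of the 20 fits without 1 library. Glud1, the glutamate dehydrogenase, did not pass the 2-fold test (log2 difference -1.0).

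Beyond the proximal tubule the differences remained but the levels were lower. In the loop of Henle and distal convoluted tubule, 23 of 26 genes were higher in kidney beyond 2-fold (median -3.85): after Umod, the cotransporters Slc12a1 (8.52 ± 1.3) of the loop and Slc12a3 (2.68 ± 0.44) of the distal convoluted tubule, the potassium channel Kcnj1 (5.75 ± 0.73) and calbindin (Calb1, 5.81 ± 1.2). Nos1, the neuronal nitric oxide synthase of the macula densa, was the member higher in gastrocnemius (0.202 ± 0.058 against 0.028 ± 0.0077); in muscle its protein is bound to the dystrophin complex. In the collecting duct, 24 of 26 were higher in kidney beyond 2-fold (median -3.53), and Aqp4 was higher in gastrocnemius: Aqp2, the vasopressin-regulated water channel, ranged from 2.94 to 6.11 in kidney and did not exceed 0.0082 in gastrocnemius, and Slc26a4, Avpr2 and Foxi1 were listed at 0 in all gastrocnemius libraries. The subunits of the proton pump kept for acid-secreting cells, Atp6v0a4 (7.86 ± 0.41), Atp6v1g3 (2.67 ± 0.43) and Atp6v1b1 (1.29 ± 0.12), were near 0 in muscle, whereas of 16 shared subunits 8 passed the 2-fold test, all higher in kidney, and Atp6v1f stood at 5.6 ± 0.31 and 5.79 ± 0.39.

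Cilium and glomerular genes had smaller medians. Since 0.1 was added before the log2, a gene's level in the higher tissue limits its log2 difference. Medians of lists of low genes are thereby held down and do not rank how particular a list is to kidney. Of 15 genes of the cilium and the polycystins tested, 4 were higher in kidney and 1 in gastrocnemius beyond 2-fold (median -0.94). Over all loci 20.4% and 12.7% were, so these counts say little about the list. Of 22 glomerular genes matched, 17 passed the filter; 9 of these were higher in kidney and 2 in gastrocnemius beyond 2-fold (median -1.33). Nphs1, nephrin of the slit diaphragm, averaged 0.204 ± 0.051, and the collagen chains Col4a3 and Col4a4 of the mature glomerular basement membrane 1.51 ± 0.20 and 4.22 ± 0.51. Lamb2, a laminin chain also found at the neuromuscular junction, and Clic5 were higher in gastrocnemius (2.10 ± 0.54 and 0.648 ± 0.19 against 0.751 ± 0.066 and 0.183 ± 0.040). Of 12 endocrine genes tested, 9 were higher in kidney beyond 2-fold: among them the hormone co-receptor klotho (Kl) at 2.65 ± 0.46 and the parathyroid hormone receptor Pth1r at 8.87 ± 1.1 against 0.103 ± 0.031. Epo and Cyp27b1 were below the filter in both tissues.

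Among transcription factors of the nephron, 16 of 21 were higher in kidney beyond 2-fold and none in gastrocnemius (median -1.86). Hnf4a, which drives proximal tubule genes, averaged 8.97 ± 1.3 against 0.0069, and 11.2 in young liver; Pax8, a lineage factor of the nephron, averaged 0.957 ± 0.063 in kidney and 0.0032 in liver. Pou3f3, Ehf, Lhx1 and Foxi1 were listed at 0 in all 10 gastrocnemius libraries. Epithelial junction genes and keratins were higher in kidney in 28 of 31 cases (median -2.83), with Epcam at 13.3 ± 0.99 against 0.025 and Cdh16 at 9.33 ± 1.2 against 0.0080; Cd24, often used as a tubular marker, did not pass the test (6.30 ± 0.90 in kidney and 5.73 ± 0.95 in gastrocnemius; limma, adjusted p = 0.147). Of the positional Hox and hindlimb genes, 12 of 30 passed the filter: Hoxb7, Hoxb4 and Hoxb8 were higher in kidney, and Tbx15 (2.89 ± 0.19 against 0.0004), Hoxa13 (0.302 ± 0.065 against 0.0015) and Prrx1 were higher in gastrocnemius beyond 2-fold.

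All 50 respiratory chain genes were higher in gastrocnemius (37.7% of all loci were), 24 of them beyond 2-fold, with a median log2 difference of 1.10: Ndufs7, a subunit of complex I, averaged 30.3 against 6.10, Cox5a 24.9 against 6.97, and Atp5b of the ATP synthase 191 against 117. With values as deposited, 34 were higher and 6 lower and 1 passed the 2-fold test, so the size of this shift rests on the scaling. In fatty acid oxidation, 7 of 24 genes were higher in kidney and 3 in gastrocnemius beyond 2-fold. Over all loci 20.4% and 12.7% were, so these counts were not far from the background. Among the 7 were Slc27a2, Ehhadh, Pex11a, Hsd17b4, Acot8 and Decr1, and the 3 were Cpt2, Hadhb and Crat. The mitochondrial acyl-CoA dehydrogenases Acadm, Acads, Acadvl and Acadl differed by 0.48 to 0.62 on the log2 scale. The first 3 of these dehydrogenases turned negative with values as deposited. Among peroxisomal and amino acid enzymes, 24 of 34 were higher in kidney and none in gastrocnemius (median -2.26), with Dao, the D-amino acid oxidase, at 39.2 against 0.015 and catalase (Cat) at 15.1 against 2.23. Of 10 genes of glucose production, 9 were higher in kidney beyond 2-fold. They included Pck1 (25.8 ± 5.4 against 0.080 ± 0.034), an early step of the path, and G6pc (7.01 ± 1.9 against 0.0063), the last step. Slc37a4, which carries glucose 6-phosphate, fell short of the test (11.2 ± 1.2 against 7.73 ± 0.57).

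**Figure D3:**
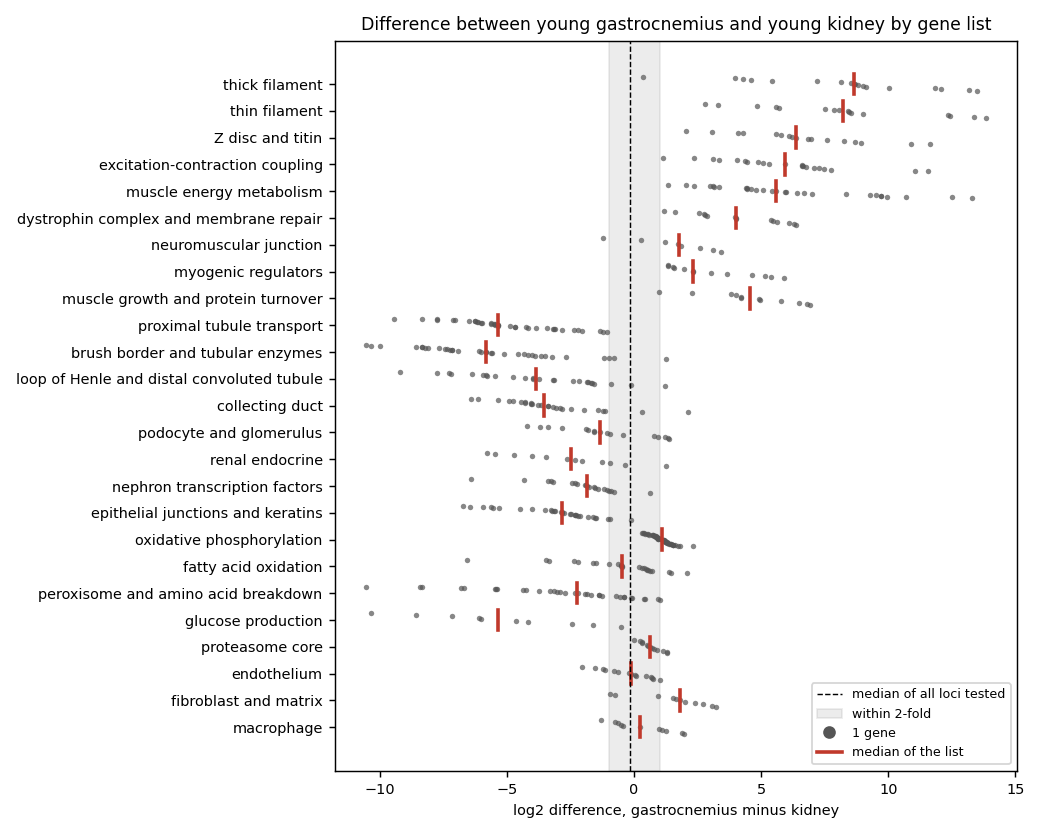
Log2 difference, gastrocnemius minus kidney, of every tested gene in 25 gene lists (grey points), with the median of each list in red, the median of all loci tested (-0.18) as a dashed line and a grey band within 2-fold. The sarcomere lists lie furthest to the right (medians 8.66 and 8.23), brush border enzymes furthest to the left (-5.84), and oxidative phosphorylation is narrow around 1.10.

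Genes used to normalise assays were not alike in the 2 tissues. Of 16 common reference genes, 5 were higher in gastrocnemius and 4 in kidney beyond 2-fold (12.7% and 20.4% of all loci were). Gapdh stood at 41.3 ± 5.0 against 4.63 ± 0.76, and Actb at 13.8 ± 0.92 against 36.7 ± 3.0. Tbp (0.235 ± 0.042 and 0.259 ± 0.039) was not called beyond 2-fold. The genes with the nearest levels among those above 10 in both tissues were Nme2, Ubb, Rpl29, Pebp1 and Rpl7, with log2 differences between -0.06 and 0.01; Nme2 averaged 20.2 ± 1.4 in gastrocnemius and 20.2 ± 1.0 in kidney. The cytosolic ribosomal proteins had a median of 0.33 and the proteasome core 0.61, but both medians turned negative with values as deposited (-0.37 and -0.12), so no direction is given for them. The noncoding RNA of RNase MRP (Rmrp) was the most abundant named locus in both tissues, at 1993 ± 247 in gastrocnemius and 2732 ± 442 in kidney.

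Markers of cells found in both organs differed by list. Of 15 endothelial genes, none was higher in gastrocnemius and 4 were higher in kidney beyond 2-fold (Plvap, Emcn, Eng and Ehd3). Over all loci 12.7% and 20.4% were, so these counts say little about the list. Pecam1 was level (1.27 ± 0.14 and 1.24 ± 0.15). Matrix genes of fibroblasts were higher in gastrocnemius in 8 of 11 cases, among them decorin (Dcn, 22.3 ± 1.8 against 6.43 ± 1.1), while Pdgfra was lower there (0.586 ± 0.037 against 1.22 ± 0.054) and short of 2-fold. Of 9 smooth muscle and pericyte genes tested, Lmod1, Rgs5 and Des were higher in gastrocnemius beyond 2-fold; the summed list ranged from 152 to 189 in gastrocnemius and from 5.0 to 7.28 in kidney, and Des, which muscle fibres also make, accounted for 155 of the gastrocnemius mean. All 6 tendon genes tested were higher in gastrocnemius; the summed tendon list ranged from 4.53 to 13.4 over its libraries. Replicate 4 held the highest Col1a1 (9.64, against 0.603 to 2.85 elsewhere), Fmod, Comp and Thbs4. In kidney, replicate 1 held the highest Fabp4 (4.36, against 0.426 to 1.30 elsewhere) and Adipoq (0.726), genes of fat cells. Of 11 macrophage genes tested, Mrc1, Cd163 and C1qc were higher in gastrocnemius and Lyz2 in kidney beyond 2-fold, and 7 were not called. The list had a median log2 difference of 0.23. Over all loci 12.7% were higher in gastrocnemius and 20.4% in kidney beyond 2-fold, so these counts say little about the list. The haemoglobin genes Hba1, Hba2 and Hbb-b1 were higher in kidney by 1.15 to 1.18 on the log2 scale and short of the 2-fold test; the part of blood left in each organ was not tested.

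Within a tissue the libraries were close: the median SD of the log2 level was 0.115 over 3399 kidney loci and 0.124 over 3074 gastrocnemius loci. Among genes with a mean of at least 5, those of large spread in gastrocnemius included Ankrd2, G0s2, Csrp3 and Aldh1a1. Ankrd2 and Csrp3, both known to respond to stretch and load, were highest in replicates 5 and 6 (Ankrd2 14.5 and 17.3 against 3.69 to 9.10 in the others, Csrp3 18.7 and 16.6 against 3.78 to 10.9). Replicate 6 also had the lowest Myh4 (228, against 338 to 554 elsewhere) together with the highest slow light chains and slow troponins (Myl2 82.3, Myl3 131, Tnni1 71.9, Tnnt1 88.5 and Tnnc1 81.3), and replicate 9 came second in each of these 5. Replicate 10 had the lowest Myl2, Myl3, Tnni1 and Tnnt1, and replicate 1 the highest Myh1 (549, against 318 to 407 elsewhere). In kidney the largest spread among genes with such a mean was that of Ppic, Tgm2, Tff3, Spp1 and Mt1a. Kap, Slc7a13 and Slc3a1 were highest in replicates 4 and 10 (Kap 346 and 308.5, others 185 to 263).

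**Figure D4:**
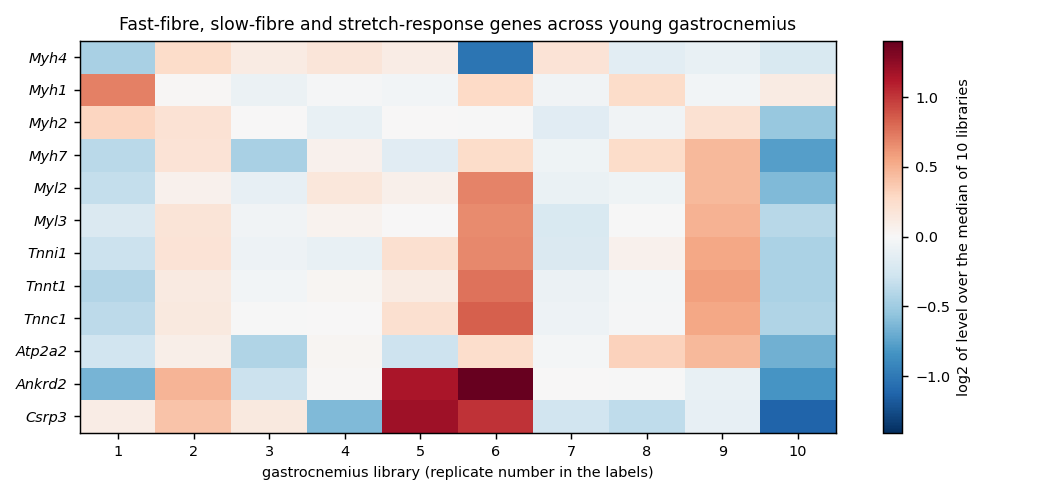
Level of 12 genes in each of the 10 young gastrocnemius libraries relative to the gene's median, on a log2 colour scale (red above, blue below the median). Replicate 6 is blue for Myh4 (228) and red for the slow-fibre genes Myl2 to Tnnc1 and for Ankrd2 (17.3), replicate 9 is red for the slow-fibre genes, and replicate 10 is blue for most of them.

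Young liver placed the differences among 3 tissues. Of the 2100 loci higher in kidney beyond 2-fold, 998 (47.5%) had a liver mean of at least 50% of the kidney mean, and 588 were higher in liver than in kidney. Of the 1314 loci higher in gastrocnemius, 180 (13.7%) had a liver mean of at least 50% of the muscle mean and 67 exceeded it. Pck1 (36.4 in liver), Fbp1 (34.4) and Hnf4a belonged to the shared kind, while Umod, Kap, Slc34a1 and Slc7a13 were listed at 0 in liver, and Acta1 stood at 0.0091 there. There were 20 loci with a gastrocnemius mean of at least 1 that were listed at 0 in all 10 kidney libraries, 14 of them also at 0 in all liver libraries, and 9 kidney loci listed at 0 in all gastrocnemius libraries, 6 of them also at 0 in liver. The highest of these 9 was Slc7a12 (2.53 ± 1.2), an amino acid transporter, and the highest of the 20 was Actn3.

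The same comparison was made in the aged vehicle groups of 24 months. Of the 1314 gastrocnemius calls, 1072 were also called in the aged animals (81.6% of the young and 89.1% of the aged calls, of which there were 1203, or 11.4% of 10579 loci; 29.9% were called in either direction), and of the 2100 kidney calls 1788 (85.1% of the young and 91.4% of the 1956 aged calls, 18.5% of loci). The sign was the same in 1295 of 1295 and 2084 of 2086 loci tested at both ages. The tissue difference changed with age at 3791 of 10843 loci (35%; limma, interaction term, adjusted p under 0.05), and the change exceeded 2-fold at 23 loci (0.212%; treat). Among them were sarcolipin (Sln), the inhibitor of the reticulum calcium pump, at 3.35 in young and 53.2 in aged gastrocnemius and 0 in kidney, then Klk1c7, Ankrd1, Cdkn1a and Gadd45a; in kidney these 4 stood at 12.6, 0.056, 0.129 and 1.63 in young rats and at 13.2, 0.086, 0.342 and 1.70 in aged ones, while in gastrocnemius they went from 0.074, 0.969, 0.258 and 0.411 to 2.41, 10.7, 5.16 and 3.31. Ctxn3, below the filter at 6 months, went from 0.114 to 3.72 in gastrocnemius. Klk1c7 belongs to a family of near-identical kallikreins, so its reads are uncertain.

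**Figure D5:**
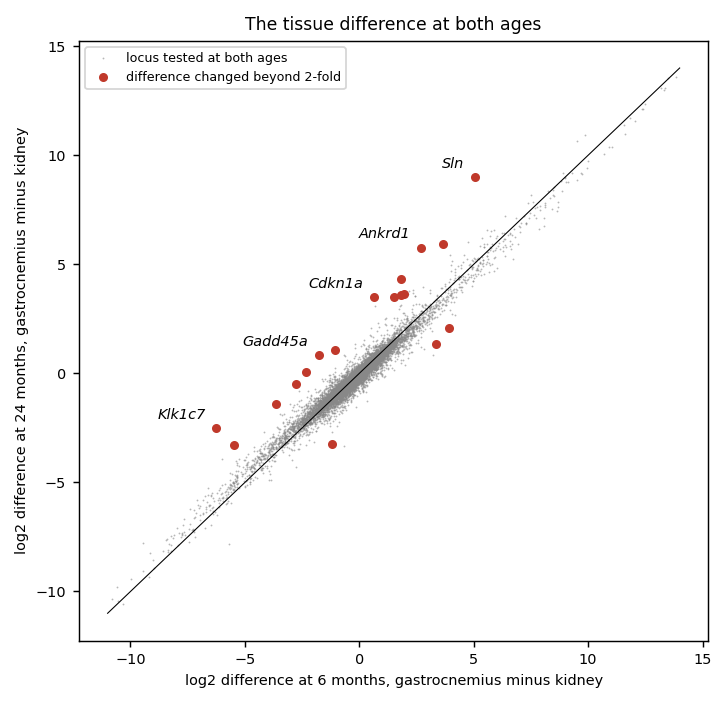
Log2 difference, gastrocnemius minus kidney, at 6 months (x axis) and at 24 months (y axis) for 10309 loci; grey points are loci, the line marks equal differences, and the 18 red points among them changed beyond 2-fold with age. The cloud follows the line, and Sln, Ankrd1, Cdkn1a, Gadd45a and Klk1c7 lie above it.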

How the data were processed

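RNA was sequenced from 10 gastrocnemius and 10 kidney libraries of young vehicle-treated rats. Per the labels' protocols, total RNA with a RIN above 8 came from about 30 mg of tissue powder. Reads were aligned with STAR 2.4.5a to rn5, per the submitters' processing notes; those notes name no tool for summarising reads per locus. The authors deposited a signal for each of 17502 loci that the sources used here do not define; from its steps it was read as mean coverage per base times a library factor. Read depth is unknown, but from the step of 1 read among low values the relative depth ranged from 0.826 to 1.29.

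From these values, library factors were set by a trimmed mean of log ratios (30% and 5% trimmed), loci with a deposited value, before scaling, of at least 0.1 in at least 8 of 20 libraries were kept, and log2(scaled value + 0.1) was fitted in limma 3.58.1 (R 4.3.3) with an empirical trend and Benjamini-Hochberg adjustment over 10309 loci; differences beyond 2-fold were tested with treat. Log2 differences understate the change of low genes. Libraries were not treated as paired. Of 792 list entries, 712 matched 1 locus. Members and gene lists were chosen with earlier results of these data known. Beyond the lists, genes were named by rule: the 10 largest differences each way with a mean of at least 10 in the higher tissue, the 5 highest levels and the 5 largest SDs in each tissue, the 5 nearest levels and the 5 largest changes of the difference with age among loci tested at 6 months, with a mean of at least 5 for SDs and 10 for nearest levels. Some genes that the lists or rules would name are not reported here. The scripts were tested on simulated data. Alternatives were other scalings, pseudocounts, filters, thresholds, a replicate block and leaving out libraries.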

Additional observations from a re-analysis of the deposited data

Results flagged for a closer look

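For 31 of 283 groups of 10 libraries examined (10.95%), 1 library stood apart from the other 9. Its gap exceeded Dixon's critical share of the whole range. Chance gives about 5%, but genes that share a cell type are not independent. The genes examined are those named in the text, some of them for a large SD or for the level of 1 library. The 10.95% therefore cannot be weighed against chance. Gastrocnemius replicate 1 stood apart at Myh1 549. In gastrocnemius replicate 2 the levels that stood apart were Myog 1.87 and Pecam1 1.62. In gastrocnemius replicate 3 the levels that stood apart were Col4a4 0.242, Hao2 0.433 and Tgm2 1.9. In gastrocnemius replicate 4 the levels that stood apart were Col1a1 9.64, Comp 1.22 and Fmod 2.56. Gastrocnemius replicate 6 stood apart at Mb 734. In gastrocnemius replicate 8 the levels that stood apart were Atp2a1 306 and Spp1 1.06. Gastrocnemius replicate 9 stood apart at Sln 5.63. Gastrocnemius replicate 10 stood apart at Myh3 1.27. In kidney replicate 1 the levels that stood apart were Adipoq 0.726, Cat 19, Clic5 0.281, Eno1 7.91, Fabp4 4.36, Gpd1 8.04, Kl 3.78, Lrp2 32.9, Nphs1 0.334 and Pax8 1.11. In kidney replicate 2 the levels that stood apart were Aqp4 0.352, Ehf 0.593, Glud1 11 and Slc37a4 8.17. In kidney replicate 9 the levels that stood apart were Glyat 49.9 and Miox 125. Kidney replicate 10 stood apart at Alb 4.48.

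The difference between the tissues, gastrocnemius minus kidney on the log2 scale, changed beyond 2-fold from 6 to 24 months (limma treat on the interaction term, adjusted p under 0.05) for 7 of the named genes tested at 6 months, with changes of Ankrd1 3.07, Cdkn1a 2.87, Gadd45a 2.6, Klk1c7 3.73, Mt1a 2.19, Myog 2.28 and Sln 3.95.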

How the results depend on the processing

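Loci higher beyond 2-fold numbered 1314 in gastrocnemius and 2100 in kidney. They numbered 840 and 1266 with a filter of at least 1 in 8 libraries and 835 and 1122 with a pseudocount of 0.5. At 4-fold they numbered 563 and 926, and with values as deposited 757 and 3496. The filter tests fewer loci, the pseudocount shrinks differences of low loci and the 4-fold test raises the required size. Values as deposited leave out the division by scaling factors, whose median was 1.29 in kidney and 0.781 in gastrocnemius. Why these factors differ between the tissues was not tested. By adjusted p alone, gastrocnemius had 1853 and kidney 2346 with the stricter filter, and gastrocnemius had 1926 with values as deposited. Without 1 library each in turn, the counts ranged from 1295 to 1319 and from 2085 to 2105 beyond 2-fold, and from 3829 to 3875 and from 5214 to 5292 by adjusted p. The share of calls in favour of gastrocnemius was 38.5%, against 36.7%, 42.1% and 17.8% with median-of-ratios scaling, upper-quartile scaling and values as deposited. With values as deposited, Acadm (-0.25), Acads (-0.23), Acadvl (-0.17) and Myh7b (-0.19) changed sign on the log2 scale. Read depth is unknown, so no limit can be set on genes listed at 0.

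Libraries were not treated as paired, since the labels do not tie them. Of 10 same-numbered pairs, 5 had a correlation of deviations above 0.1. These correlations ran from -0.131 to 0.378 over 1542 loci (median 0.123), against -0.37 to 0.31 between other numbers (median -0.009), and 4 of 10 kidney libraries correlated best with their own number, a hint from the data that leaves the pairing unknown. With the replicate block, the counts were 1317 and 2100 beyond 2-fold and 3876 and 5294 by adjusted p.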
